A study of Mus musculus with 4 samples.

Results

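Messenger RNA levels of 50 immediate early and heat shock genes were examined in sorted cells of the mouse spinal cord. The members were the rows of the count table, 42458 in all, whose name equals that of a listed gene: 36 immediate early and early stress genes and 14 heat shock genes. The series holds 4 libraries, each made from 50 cells of 1 C57BL6 mouse, and no other group. Each mouse had received the virus AAV2-CAG-tdT into a brain ventricle to label cerebrospinal fluid-contacting neurons (CSF-cNs) with the red protein tdTomato; the CAG promoter is active in many cell types. Per the labels, slices with the ependymal region were digested at 37 °C for 15 min in a first enzyme mix and for 5 min more after a second was added, and live tdTomato-positive cells were sorted. Since all 4 mice were injected, digested and sorted, the levels below cannot be told apart from any change made by these steps, and the age of the mice is not given in the sources used here.

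Immediate early genes are switched on within minutes of a stimulus, by transcription factors that the cell already holds, without new protein synthesis. Many code for transcription factors such as Fos and Jun, which pair to form AP-1, and others code for proteins that end the response, such as the phosphatase Dusp1 and the RNA-binding protein Zfp36. Heat shock genes code for chaperones that fold or refold proteins; some are made at all times, and others are induced through the factor Hsf1 when proteins unfold. In neural tissue both groups are used as signs of cell activity or stress, and both are known to respond to warm enzymatic dissociation.

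The promoter sequences of members are shown because known control elements differ between the groups. RefSeq windows on GRCm38.p6, from 250 bases before to 50 bases after the annotated start site, were found for 40 of the 50 members (30 immediate early and 10 heat shock). In the sequences below only the 250 bases before the start site are given, 5′ to 3′ on the gene's strand. Capitals mark a match to a searched motif: GAANNTTC (a pair of heat shock element units) in the heat shock genes, TGACGTCA (the cAMP response element, CRE) in Dusp1, and the CArG box (the site of serum response factor) in Zfp36.
Hspa1b, chr17:34959239-34959488, minus strand: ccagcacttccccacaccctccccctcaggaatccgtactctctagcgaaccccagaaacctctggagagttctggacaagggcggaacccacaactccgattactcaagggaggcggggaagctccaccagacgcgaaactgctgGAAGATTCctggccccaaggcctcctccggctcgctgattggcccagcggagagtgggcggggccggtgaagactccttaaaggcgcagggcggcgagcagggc
Hspa1a, chr17:34972157-34972406, minus strand: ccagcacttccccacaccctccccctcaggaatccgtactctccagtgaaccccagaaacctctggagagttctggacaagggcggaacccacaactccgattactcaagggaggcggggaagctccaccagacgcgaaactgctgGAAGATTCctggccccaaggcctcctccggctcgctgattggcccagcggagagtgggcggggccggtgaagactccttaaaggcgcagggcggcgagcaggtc
Hspb1, chr5:135887669-135887918, plus strand: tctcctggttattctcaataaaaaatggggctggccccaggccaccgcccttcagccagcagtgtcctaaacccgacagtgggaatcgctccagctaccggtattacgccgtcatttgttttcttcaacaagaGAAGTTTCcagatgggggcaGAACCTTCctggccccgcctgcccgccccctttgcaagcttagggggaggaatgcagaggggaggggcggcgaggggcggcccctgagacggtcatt
Hspe1, chr1:55087898-55088147, plus strand: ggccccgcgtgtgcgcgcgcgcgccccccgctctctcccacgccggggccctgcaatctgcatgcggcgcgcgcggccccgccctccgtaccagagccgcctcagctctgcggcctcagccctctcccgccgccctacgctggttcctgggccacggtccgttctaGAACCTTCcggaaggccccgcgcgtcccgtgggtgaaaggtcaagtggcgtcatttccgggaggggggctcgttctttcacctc
Dusp1, chr17:26508473-26508722, minus strand: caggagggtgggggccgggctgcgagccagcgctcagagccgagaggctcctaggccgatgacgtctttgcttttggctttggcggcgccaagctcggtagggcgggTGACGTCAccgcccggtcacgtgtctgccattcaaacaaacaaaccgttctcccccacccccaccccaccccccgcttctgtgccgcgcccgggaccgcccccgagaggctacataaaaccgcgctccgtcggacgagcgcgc
Zfp36, chr7:28379229-28379478, minus strand: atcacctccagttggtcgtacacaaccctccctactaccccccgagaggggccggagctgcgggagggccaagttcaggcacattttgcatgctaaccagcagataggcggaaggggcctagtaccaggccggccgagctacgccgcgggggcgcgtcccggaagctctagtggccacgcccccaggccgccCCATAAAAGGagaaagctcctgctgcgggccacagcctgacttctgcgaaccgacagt

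The Hspa1a and Hspa1b windows, aligned at their start sites, had the same base at 296 of 300 positions (98.7%). GAANNTTC, searched on both strands, occurred in the windows of 7 of 10 heat shock members (70.0%), namely Dnaja1, Hspa1a, Hspa1b, Hspb1, Hspd1, Hspe1 and Hsph1. It occurred in 2 of 30 immediate early members (6.67%, Fosl2 and Jun), in 7.44% of the 13250 tested genes with a window and in 9.04% of all 27025 genes with a window. In Hsph1 the match lay after the start site. Hspe1 and Hspd1 are transcribed away from each other on chromosome 1, and a window of Hspd1 shares 285 bases with that of Hspe1, so their matches are the same site.

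The CRE occurred in 3 of 30 immediate early members (Btg2, Dusp1 and Maff) and in 0 of 10 heat shock members, against 3.09% of tested genes. The CArG box occurred in 2 of 30 immediate early members (6.67%: Egr2 and Zfp36) and in 0 of 10 heat shock members, against 1.62% of tested genes. The AP-1 motif TGANTCA occurred in 2 of 30 immediate early members (6.67%), 1 of 10 heat shock members (Hspa5) and 6.54% of tested genes. No searched motif overlapped another in these windows. Genes with several annotated starts were counted once, with a match in any of their windows. A match describes letters only, and elements farther from the start site were not searched.

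**Figure D1:**
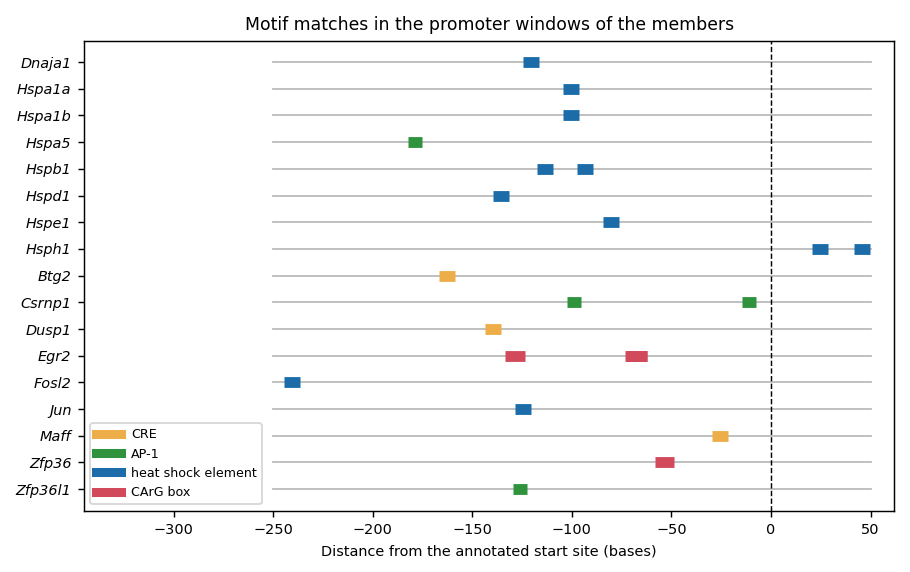
Positions of motif matches in the promoter windows of the 17 members with a match; the x axis is the distance from the annotated start site in bases, grey lines are the windows, and colours are motifs. Windows of different starts of a gene are drawn on 1 line, so a site can appear more than once (Egr2, Hsph1). GAANNTTC matches of heat shock members lie before the start site except in Hsph1.

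The libraries held 83007030 to 115479640 counts and 15773 to 17291 genes with a count. The 10 microglia markers were present at 1541 CPM (counts scaled by the TMM-adjusted library total) or more in each library, and their summed level was 66192, 71464, 43409 and 61575 CPM in mice 1, 2, 3 and 4. The 7 CSF-cN markers summed to 19.4, 2.59, 930 and 831 CPM; of these Gata3 had no count in mice 1 and 2, Gata2 none in mouse 1 and Pkd1l2, Myo3b and Tal2 none in mouse 2. The labelled cell type was thus nearly without its markers in mice 1 and 2, whose libraries held 5 and 58 counts of the transgene, against 13533 and 153379 in mice 3 and 4. The 10 oligodendrocyte markers summed to 15474, 236, 19775 and 455 CPM in the same order. In such bulk libraries, fewer cells of a type and less RNA per cell cannot be told apart, and which cells carried the members' RNA was not tested.

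Most members were abundant. Of the 50, 48 had at least 10 counts over the 4 mice and were tested, and 38 were called above 10 CPM, where edgeR called 36.7% of all 18522 tested genes above that level. By group, 25 of 36 immediate early members (34 tested) and 13 of 14 heat shock members were called. At 10 CPM or more in all 4 mice stood 35 members, and the share of all genes that reach this is not given here. Above 50 CPM, 27 members were called (18 immediate early and 9 heat shock), against 12.5% of all tested genes. The median log2 level relative to 10 CPM was 3.65 for the 34 immediate early genes and 5.13 for the 14 heat shock genes, against -0.07 for all tested genes. Below 10 CPM, edgeR called 0 members, against 0.664% of all tested genes, and 0 members with a negative log2 level had an unadjusted p under 0.05. There limma-voom called 3 members (Fosl2, Maff and Nr4a2) and 33.3% of all tested genes, DESeq2 called 0 members and 11.1% of all tested genes, and edgeR without the filter on low counts called 1 member (Nr4a3) and 11.8% of 21132 genes.

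**Figure D2:**
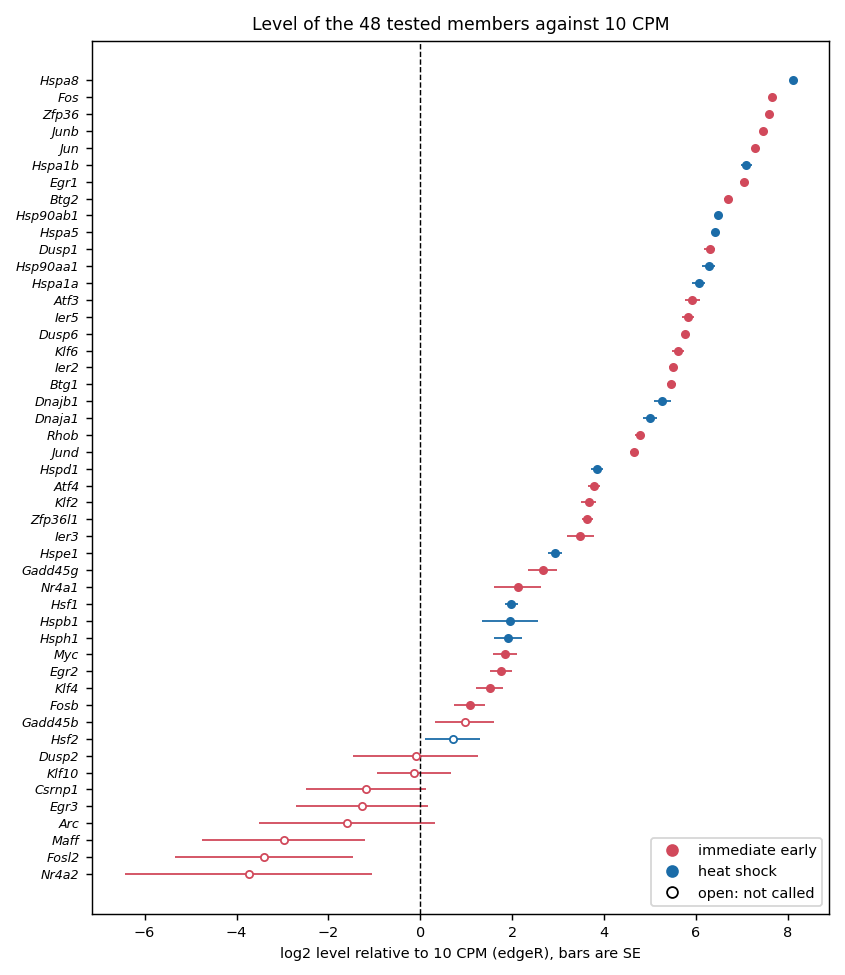
Fitted level of the 48 tested members relative to 10 CPM, on a log2 scale. Points are edgeR estimates over 4 mice, and filled points were called above 10 CPM. Bars are SE derived from F, which for Fos is narrower than the SE of limma-voom or DESeq2. Hspa8 (8.12), Fos (7.65) and Zfp36 (7.58) lie at the top, and 10 members, from Gadd45b (0.97) to Nr4a2 (-3.73), were not called.

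The AP-1 genes Fos, Jun and Junb were among the most abundant transcripts of the libraries. Fos, which codes for the AP-1 subunit used most widely as a sign of recent activation, had 3050, 2099.6, 1204 and 1698 CPM in mice 1, 2, 3 and 4 and took rank 42 by mean level among all 42458 rows. Junb reached 2453, 1957, 949 and 1663 CPM and Jun, the main partner of Fos, 2334, 1713, 796 and 1389 CPM. All 3 genes were highest in mouse 1 and lowest in mouse 3. All were called (for Fos, a log2 level of 7.65 with SE 0.07 and an edgeR quasi-likelihood p of 3.3e-09 after Benjamini-Hochberg adjustment). The edgeR SE given here and below is derived from F, and for Fos it is smaller than that of limma-voom (0.20) or DESeq2 (0.22). On GRCm38, Fos occupies chr12:85473890-85477273 (plus strand), Jun chr4:95049034-95052222 and Junb chr8:84974484-84978718 (both minus strand). Exons of Junb share 173 bases with Prdx2 on the other strand, and reads there cannot be assigned without strand.

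The other AP-1 genes were lower. Jund, the Jun family member that many resting cells already express, stood at 235, 305, 182 and 286 CPM. A second row named Jund with a number suffix holds exactly the same counts, so how the reads were divided between the rows is not known. Fosb was at 14.3, 14.8, 13.7 and 41.4 CPM, with the highest value in mouse 4, and its call was narrow (log2 1.07, SE 0.33, edgeR adjusted p = 0.047). This call was lost without any single mouse (adjusted p from 0.059 to 0.39), under limma-voom (0.052) and under DESeq2 (0.12). Fosl2 stood at 1.86, 0.0428, 0.116 and 1.74 CPM and was not called (adjusted p = 0.22). Of the 6 AP-1 genes 5 were called.

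Atf3 and Egr1 were also high. Atf3, a stress-induced factor of the ATF family that can act as a repressor, had 1345 CPM in mouse 1, against 452, 228 and 393 CPM in mice 2, 3 and 4 (log2 level 5.92, SE 0.16, edgeR adjusted p = 3.2e-07). Atf4, which is controlled largely at translation and drives the integrated stress response, was steadier at 143, 212, 99.7 and 93.5 CPM. Maff, a small MAF partner, had 206, 226, 65 and 2 counts and stayed at 2.42 CPM or lower. The zinc finger factor gene Egr1 stood at 1293, 1966, 651 and 1350.1 CPM, with its highest value in mouse 2. Its relative Egr2 was at 53.7, 34.1, 17.2 and 30.5 CPM (5799, 3184, 1480 and 2736 counts). A suffix row of Egr2 holds 8040 further counts over the 4 mice, which these values leave out. Egr3 had 1131 and 506 counts in mice 1 and 3 (10.5 and 5.87 CPM) but 4 and 13 counts in mice 2 and 4 (0.0428 and 0.145 CPM), and was not called (log2 -1.28, SE 1.44, adjusted p = 0.48).

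The small response proteins of the Ier class and the orphan receptors of the Nr4a class differed in level. Ier5, a regulator of the heat shock response, had 945, 647, 258 and 419 CPM. Ier2, which codes for a nuclear protein, had 443, 639, 271 and 457 CPM. Ier3, a regulator of survival, spanned 249, 116, 46.8 and 32.6 CPM, a 7.64-fold range. Csrnp1 was at 3.91, 10.3 and 3.47 CPM in mice 1, 2 and 3 and had 1 count in mouse 4. Nr4a1, the receptor used as a sign of activation in immune and neural cells, was at 105 and 54.2 CPM in mice 1 and 2 and at 9.26 and 5.29 CPM in mice 3 and 4. Its call above 10 CPM (log2 2.12, SE 0.51, edgeR adjusted p = 0.017) was lost without mouse 1 (0.22), without mouse 2 (0.070) and under limma-voom (0.11). Nr4a2 had 130 and 145 counts in mice 2 and 4 (1.39 and 1.62 CPM) and none in mice 1 and 3. Nr4a3 had 1 and 4 counts in mice 2 and 4 and none in the others, too few for a test.

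Of the MAP kinase phosphatase genes, Dusp1 and Dusp6 were high. Dusp1, which dampens p38 and JNK signalling, stood at 1586 CPM in mouse 1 and at 521, 509.9 and 521 CPM in mice 2, 3 and 4, a 3.11-fold range in which the other 3 libraries nearly coincided. Dusp6, a phosphatase of ERK, was among the steadiest members at 578, 526, 447 and 629 CPM. Dusp2 had 3052 and 762 counts in mice 1 and 3 (28.3 and 8.83 CPM) and only 2 and 7 counts in mice 2 and 4, the same libraries in which Egr3 was nearly without counts. Dusp2 was not called (log2 -0.10, SE 1.36, edgeR adjusted p = 0.95).

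The Btg and Gadd45 genes, Myc and Rhob differed widely in level. Btg2, an antiproliferative gene and target of p53, had 1187, 1257, 531 and 1170.4 CPM and Btg1 468, 568, 234 and 488 CPM; both were lowest in mouse 3. Rhob, an early-response small GTPase gene, had 359.8, 331, 179 and 223 CPM. Gadd45g was at 151 CPM in mouse 1 and 41.9, 26.2 and 33.2 CPM in the others, and Myc, a growth regulator, at 67.4 CPM in mouse 1 and 31.2, 23.3 and 22.2 CPM in the others. Gadd45b stood at 43.5, 12.1, 21.8 and 0.836 CPM without a call (log2 0.97, edgeR adjusted p = 0.28), but it was called without mouse 4 (1.35, adjusted p = 0.042).

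The Krüppel-like factors and the Zfp36 proteins shared the pattern of high values in mice 1 and 2 only in part. Klf6 had 862, 493, 329 and 269 CPM and Klf2, a factor of quiescent cells, 218, 100.4, 75.9 and 113 CPM. Klf4 was at 53.9, 25.3, 15.3 and 19.8 CPM. Klf10, a target of TGF-beta, went against the other 3: it had 30 counts (0.278 CPM) in mouse 1 and 12.3, 13.0 and 10.7 CPM in mice 2, 3 and 4, and it was not called (edgeR adjusted p = 0.89). Zfp36, which binds AU-rich elements and speeds the decay of immediate early messengers, had 1838, 2336, 984 and 2502 CPM (log2 7.58, SE 0.07, adjusted p = 3.8e-09). Zfp36l1 had 141, 169, 88.3 and 97.1 CPM.

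Of the genes whose induction depends on neuronal activity, Npas4 had no counts and Arc had counts mainly in mice 1 and 3. Npas4, the activity-dependent factor of neurons, had no count in any library, which allows at most 0.0278 to 0.0348 CPM (3 counts, counting error only). Arc, a synaptic gene induced by activity, had 618 and 643 counts in mice 1 and 3 (5.72 and 7.45 CPM), 1 count in mouse 2 and none in mouse 4. Arc was not called (log2 -1.60, SE 1.91, edgeR adjusted p = 0.50). The libraries with CSF-cN markers were mice 3 and 4, which differ in Arc. Arc, Egr3 and Dusp2 shared the order in which mice 1 and 3 were high and mice 2 and 4 nearly without counts, an observation made after their values were seen. The oligodendrocyte marker sums (15474, 236, 19775 and 455 CPM) and the sums of the 8 astrocyte markers (1253, 161, 1347 and 299 CPM) were also higher in mice 1 and 3 than in mice 2 and 4. The astrocyte sums rested mainly on Aldoc (835, 11.6, 846 and 118 CPM) and S100b (298, 4.20, 440 and 10.5 CPM). Slc1a3 went another way (115, 122, 52.2 and 155 CPM), Gfap was highest in mouse 2, and Aqp4 and Gja1 were highest in mouse 4. Slc1a2 and Aldh1l1 stayed at 0.29 CPM or lower. The part of these cell types in Arc, Egr3 and Dusp2 was not tested.

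**Figure D3:**
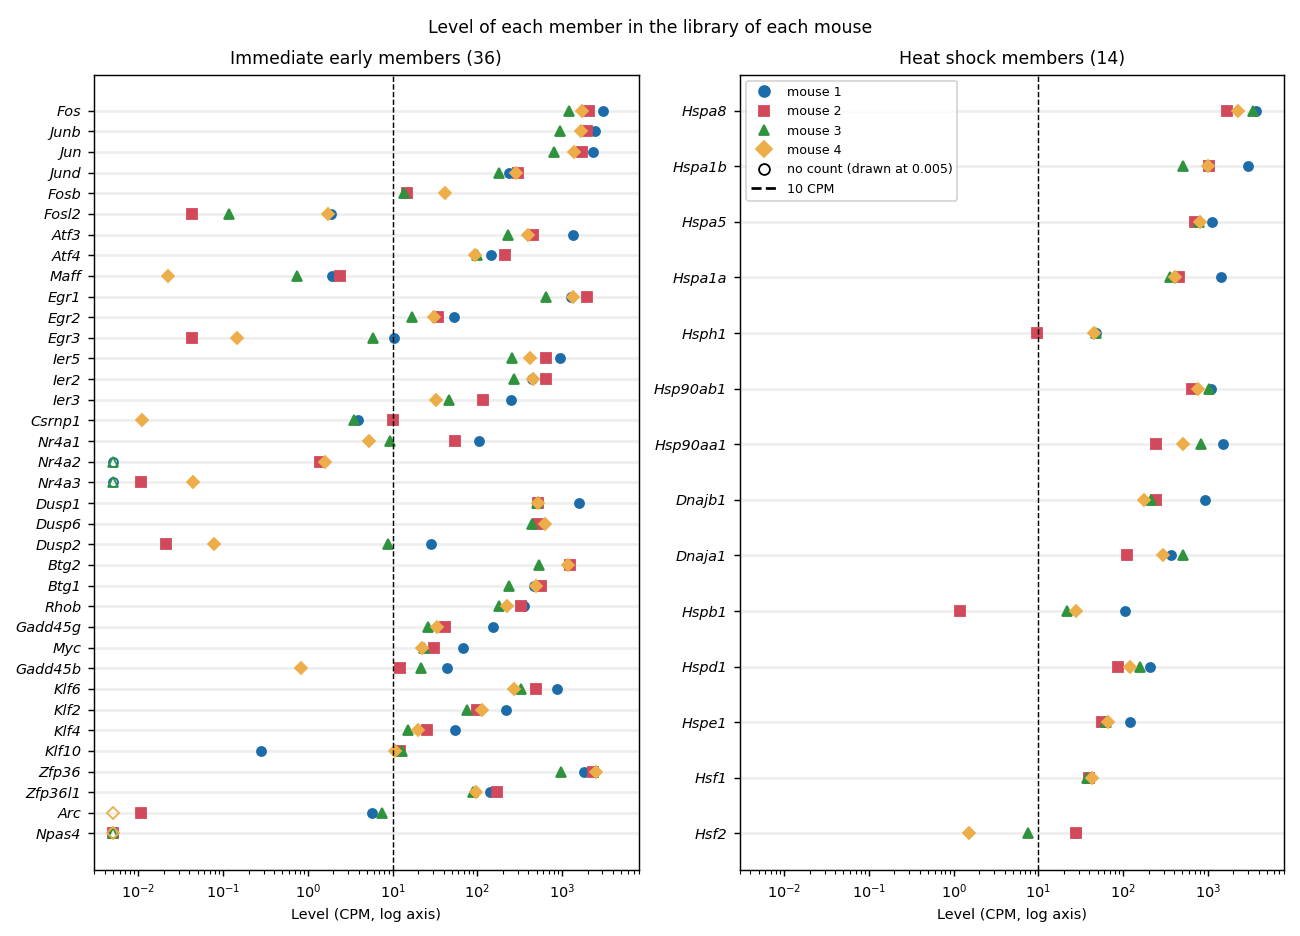
Level of each of the 50 members (CPM, log axis) in the library of each mouse, with 36 immediate early genes on the left and 14 heat shock genes on the right; open symbols are libraries with no count the dashed line is 10 CPM, and points can overlap. Fos, Junb, Jun, Zfp36 and Hspa8 lie at or above the 796 CPM of Jun in mouse 3 in every mouse, and Npas4 has no count.

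Hspa8 and Hspa1b, of the HSP70 family, had the highest means of the heat shock members. Hspa8, the constitutive HSP70 of the cytosol, had 3734, 1693, 3390 and 2281 CPM, the highest mean of all members (log2 level 8.12, SE 0.06, edgeR adjusted p = 1.5e-09). Its inducible relatives were highest in mouse 1: Hspa1b stood at 2941, 1028, 504 and 999 CPM and Hspa1a at 1439, 455, 361 and 406 CPM. These are near-identical neighbours on chromosome 17 (Hspa1b from 34956436 to 34959238, Hspa1a from 34969190 to 34972156, both on the minus strand), and each has a suffix row with exactly the same counts, so the split between them and their absolute levels are uncertain. Hspa5, the HSP70 of the endoplasmic reticulum known as BiP, varied little at 1130, 708, 781 and 803 CPM. Hsph1, an HSP110 exchange factor, was at 47.9, 47.3 and 44.8 CPM in mice 1, 3 and 4 and at 9.59 CPM in mouse 2.

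The HSP90 genes of the cytosol differed in their spread. Hsp90ab1, the constitutive form, had 1087, 652, 1038 and 767 CPM, a 1.67-fold range. Hsp90aa1, the inducible form, had 1519, 242, 830.0 and 511 CPM, a 6.27-fold range. Both were highest in mouse 1 and lowest in mouse 2. Dnajb1, the inducible HSP40 that serves HSP70, had 912 CPM in mouse 1 and 242, 212 and 175 CPM in the others, while Dnaja1 had 368, 109.8, 502 and 294 CPM.

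The small and mitochondrial chaperones were lower. Hspb1, which holds unfolded proteins and is known as Hsp25, was at 104, 1.18, 21.7 and 27.7 CPM, the widest range of a heat shock member (88.2-fold). Its narrow call (log2 1.95, SE 0.61, edgeR adjusted p = 0.047) was lost without mouse 1 (0.44), mouse 3 (0.090) or mouse 4 (0.10) and under limma-voom (0.42). Hspd1 and Hspe1, which together form the chaperonin of mitochondria, had 209, 87.3, 157 and 122 CPM and 121, 56.1, 62.9 and 65.6 CPM. The heat shock factor gene Hsf1 had the smallest spread of all members expressed at 10 CPM or more on average, at 38.1, 39.1, 37.0 and 43.5 CPM (SD of log2 0.10). Hsf2 was at 28.1 and 27.8 CPM in mice 1 and 2 and at 7.62 and 1.53 CPM in mice 3 and 4, and edgeR did not call it (adjusted p = 0.37).

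The summed levels of the members varied between mice, with another order in each group. The 36 immediate early genes summed to 20270, 16649, 8230 and 13962 CPM in mice 1, 2, 3 and 4, and the 14 heat shock genes to 13676, 5351, 7952 and 6542 CPM. Of the 26 immediate early members with a mean of 10 CPM or more, 16 (61.5%) were highest in mouse 1 and 20 (76.9%) lowest in mouse 3; among all 9125 genes of that level 24.2% were highest in mouse 1 and 28.5% lowest in mouse 3. Of the 14 heat shock members, 12 (85.7%) were highest in mouse 1 and 9 (64.3%) lowest in mouse 2, against 24.2% and 26.1% of all genes. No test was made of these counts, since members of a library are not replicates.

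The size of these shifts was moderate. In mouse 1 the median deviation of log2(CPM + 1) from the mean of the 4 mice was 0.68 for immediate early and 0.67 for heat shock members, and 0.03 for all genes. In mouse 3 the median was -0.68 for immediate early members and 0.05 for heat shock members. In mouse 2 it was 0.24 for immediate early and -0.39 for heat shock members. All 10 microglia markers were also lowest in mouse 3 (median deviation -0.45), 7 of them were highest in mouse 2 and 3 in mouse 1. Of the oligodendrocyte markers 7 of 10 were lowest in mouse 2 and 3 in mouse 4, and 8 were highest in mouse 3. The part of these cell types in the members' shifts was not tested.

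**Figure D4:**
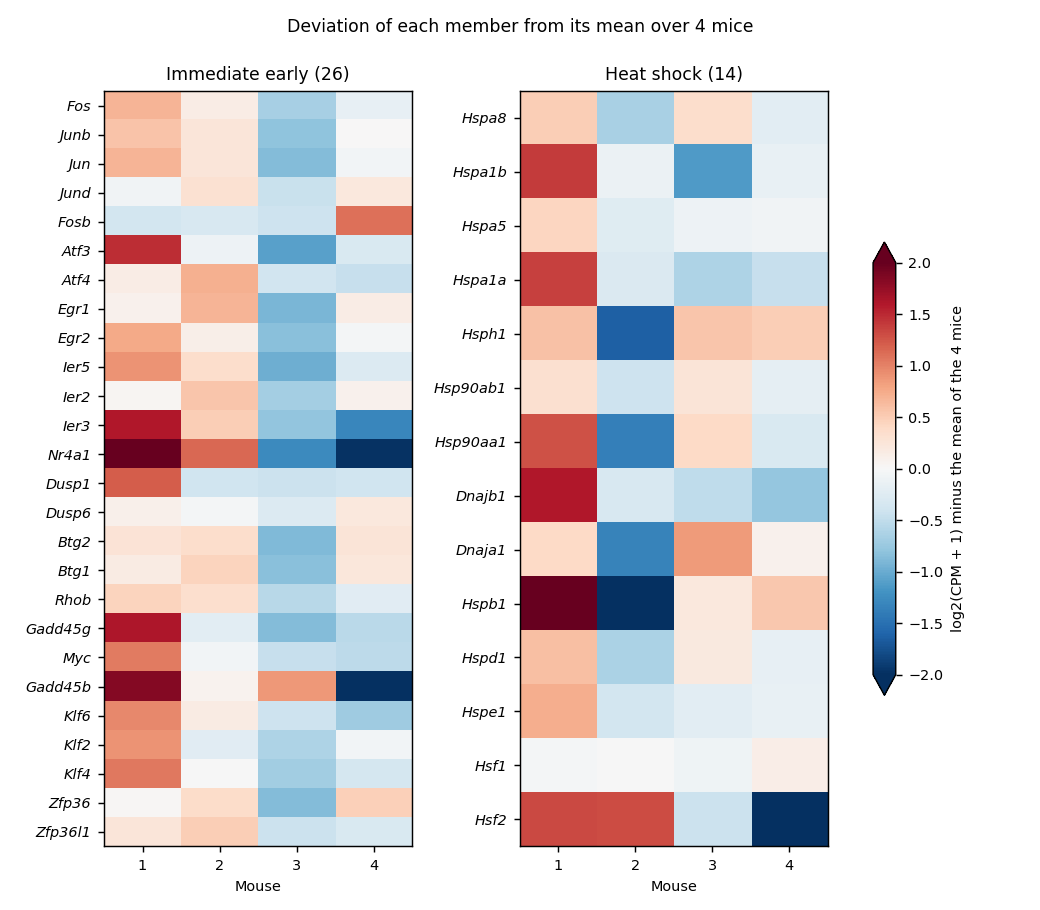
Deviation of log2(CPM + 1) from its mean over the 4 mice for the 40 members with a mean of at least 10 CPM; columns are mice and red is higher. Mouse 1 is mostly red in both groups, mouse 3 is blue for most immediate early genes, and mouse 2 is blue for most heat shock genes.

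The spread between mice was set beside that of other genes and of repeat runs. The median SD of log2(CPM + 1) over 4 mice was 0.65 for the 26 immediate early members and 0.93 for the 14 heat shock members, against 0.50 for all 9125 genes of at least 10 CPM on average. These sets were not matched for level, with a median mean level of 356, 352 and 39.0 CPM in that order. The widest of these members were Hspb1 (2.33), Gadd45b (1.98), Nr4a1 (1.94), Hsf2 (1.68) and Ier3 (1.31). The steadiest were Hsf1 (0.10), Dusp6 (0.21) and Hspa5 (0.29). The 2 runs of a library differed far less: for 39 members with 100 counts or more in every mouse, the largest run difference had a median of 0.03 on the log2 scale and reached 0.26 in Nr4a1.

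Levels of different genes were compared per kilobase of exonic length, which merges the exons of all annotated transcripts of a gene (4301 bases for Hspa8 and 2352 for Fos). Where the merged length exceeds that of the transcript in use, the level per kb is too low, and this was not corrected. On that scale Fos averaged 856 ± 333 CPM per kb, Junb 763 ± 273, Hspa8 645 ± 221, Zfp36 552 ± 196, Jun 489 ± 201 and Hspa1b 488 ± 384 CPM per kb (SD, n = 4 each). Neighbours in this order differ by less than their SD, which is the spread of each gene between mice, not of differences within a mouse. Egr1 averaged 293 ± 120 CPM per kb (SD) and Hsp90ab1 295 ± 70.0, and Hspa1a 224 ± 174. Suffix rows are left out of these values.

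Within each mouse, 8 pairs of related genes were compared by the log2 ratio of CPM per kb + 1. With 4 mice the exact two-sided sign-flip permutation test cannot give a p below 0.125, so no pair could pass 0.05. Jun was below Fos in 4 of 4 mice, with log2 ratios of -0.82, -0.73, -1.03 and -0.73 (mean -0.83 ± 0.14, SD; exact p = 0.125, Benjamini-Hochberg adjusted 0.17 over 8 pairs). Junb exceeded Jund in 4 of 4 mice by a mean of 2.27 ± 0.44 (exact p = 0.125, adjusted 0.17), and Klf6 exceeded Klf4 by 3.43 ± 0.27, with the same exact p. With the suffix rows added, the Junb over Jund mean was 1.28. Egr1 over Egr3 was 6.42 and 5.97 in mice 1 and 3, where Egr3 had counts to compare. Egr3 was at only 2.38 and 1.33 CPM per kb there, so the pseudocount of 1 lowered these ratios too. In mice 2 and 4, with 4 and 13 counts of Egr3, the ratios of 8.77 and 8.19 were set on the lower side by the pseudocount, so the mean of 7.34 ± 1.35 is not read as a size. Nr4a1 over Nr4a3 was 3.04 ± 1.73, but Nr4a3 was nearly without counts, so that ratio could not turn negative. No test is read for these 2 pairs.

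Among chaperones, the order of the constitutive HSP70 gene Hspa8 and its inducible relatives in mouse 1 depended on which rows were counted. For Hspa1b it also depended on the scaling by length. For Hspa8 over Hspa1a, rows named exactly so, the log2 ratios were 0.84, 1.35, 2.69 and 1.95 in mice 1, 2, 3 and 4 (mean 1.71 ± 0.79, SD; exact sign-flip permutation p = 0.125, adjusted 0.17), so the genes were closest in mouse 1. With the suffix rows of Hspa1a added, the ratios were -0.16, 0.36, 1.69 and 0.95 (mean 0.71 ± 0.80), above 0 in 3 of 4 mice. Hspa8 over Hspa1b, compared without a test, was -0.27, 0.10, 2.12 and 0.57 (mean 0.63 ± 1.05), also above 0 in 3 of 4 mice. With the suffix rows of Hspa1b added it was above 0 in mouse 3 alone (-1.27, -0.90, 1.13 and -0.43). In CPM and without suffix rows, Hspa8 was the higher in each mouse (3734, 1693, 3390 and 2281, against 2941, 1028, 504 and 999 for Hspa1b). Hsp90ab1 over Hsp90aa1 was -0.09, 1.80, 0.71 and 0.97 (mean 0.85 ± 0.78; exact p = 0.25, adjusted 0.29), again lowest in mouse 1, where the inducible form was slightly the higher. Hspd1 over Hspe1 was -0.05, -0.20, 0.47 and 0.05 (mean 0.07 ± 0.29; exact p = 0.875, adjusted 0.875) and was higher in 2 of 4 mice. Its mean difference is smaller than its spread. This near-equality depends on the scaling by length. In CPM, Hspd1 was the higher in each mouse (209, 87.3, 157 and 122, against 121, 56.1, 62.9 and 65.6 for Hspe1).

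**Figure D5:**
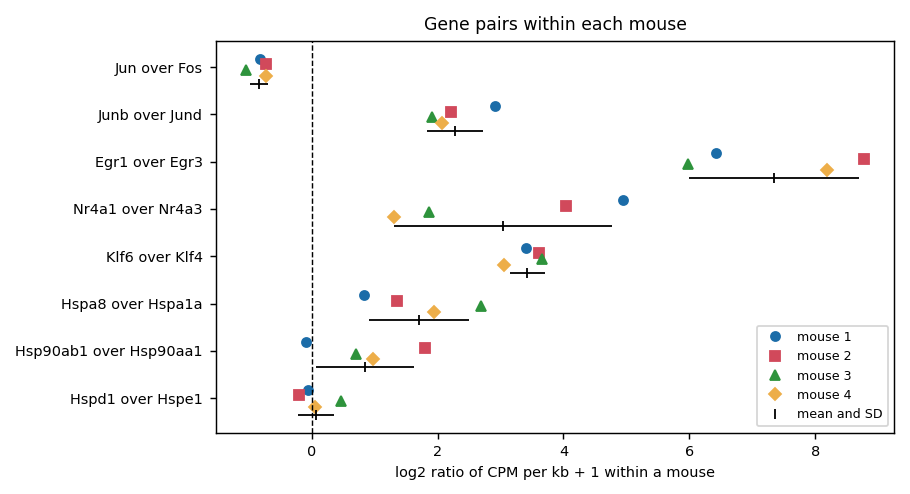
Log2 ratio of CPM per kb + 1 for 8 gene pairs within each mouse; points are mice, and the black bar below each pair is the mean with its SD. Jun over Fos lies below 0 and Junb over Jund and Klf6 over Klf4 above 0 in all 4 mice; Hspa8 over Hspa1a, drawn without suffix rows, does too, but falls to -0.16 in mouse 1 with them, and Egr3 and Nr4a3 had few or no counts in some mice.

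Other genes of the same responses were read from lists of 40 each. Of the further immediate early and early stress genes, 17 of 40 (35 tested) were called above 10 CPM by edgeR, against 36.7% of all tested genes. Among the highest means were those of Sgk1, a stress-responsive kinase gene (673 ± 289 CPM, SD, n = 4), Nfkbia, the inhibitor of NF-kappaB (648 ± 336 CPM), and Ppp1r15a, which reverses the integrated stress response (353 ± 214 CPM). These 3 genes were highest in mouse 1 and lowest in mouse 3, as Fos was. Some other called genes of this list were highest in another mouse, and the share with this order was not counted. Of the further chaperone genes, 31 of 40 (39 tested) were called, against the same 36.7%. The highest were Hsp90b1 (988 ± 179.9 CPM), Canx (796 ± 111 CPM) and Calr (551 ± 144 CPM), chaperones of the endoplasmic reticulum, and Xbp1, a factor of the unfolded protein response (374 ± 24.1 CPM).

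Gene structure, which the choice of members did not use, is given as a description. The immediate early members spanned a median of 5.07 kb with 3 exonic blocks, and the heat shock members 7.34 kb with 7.5 blocks, against 24.7 kb and 9 blocks for 13847 tested protein-coding genes. The sequence TATTTAT, the core of AU-rich elements that speed messenger decay, occurred in the 3′ untranslated region of 19 of 36 immediate early members (52.8%). It occurred in 2 of 14 heat shock members (14.3%) and in 27.6% of 13557 tested genes. At least 2 copies were found in 9 of 36 immediate early members (25.0%), namely Fos, Fosl2, Maff, Ier3, Nr4a3, Dusp1, Klf6, Zfp36 and Zfp36l1, against 9.67% of tested genes. These regions had a median of 1188 bases in immediate early members, 727 in heat shock members and 963 in tested genes, and length was not held fixed.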

How the data were processed

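RNA of 50 sorted cells from each of 4 mice was sequenced; per the labels, complementary DNA was made with SMART-Seq v4 and 11 PCR cycles and libraries with Nextera XT, which keeps no strand and no molecular identifiers. Counts per gene, in whole numbers, are what the authors deposited, with 2 columns per mouse, taken as repeat runs and summed, and a table of log2 values which, from the values, is log2 of the counts over a size factor, plus 1, used only as an alternative. The tools named, per the submitters' processing notes, are STAR, RSEM, DESeq2, Trim Galore and FastQC, with build mm10 and no settings. No sample was left out.

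Levels were tested against 10 CPM with edgeR 4.0.16 in R 4.3.3: an intercept-only quasi-likelihood fit over the genes with at least 10 counts in total, with TMM factors of 0.935 to 1.05 and Benjamini-Hochberg adjustment at 0.05. F came from the deviances with and without the intercept, and the procedure was tested on data simulated from the fitted model itself. Such data lack the differences in cell markers between these libraries, so the p-values draw no support from them. Each SE is the absolute log2 level over the root of F and does not give the scatter of the mice. For Hspa8 it was 0.06, against 0.18 in limma-voom and 0.21 in DESeq2. For Nr4a2 it was 2.68, against 2.09 and 2.28. limma 3.58.1 and DESeq2 1.42.0 were alternatives. P-values of the level test set the distance from 10 CPM against a variance between mice that edgeR moderates over genes. They are not a measure of the spread between mice itself. Pairs used log2 with a pseudocount of 1. Positions, lengths (merged exons of all transcripts) and untranslated regions (the transcript with the longest coding sequence) are those of GENCODE M21 (GRCm38, that is mm10). Promoters are from RefSeq, and Python 3.11.15 was used.

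The members, lists and tests were chosen with earlier results of these data known. All members were named, with 4 values for the 3 highest of a role class and those that were low, variable or paired; the values of Hsph1 and Myc were added after they were seen. Of the other pathway genes, those with the highest means of each list were named; 1 result is not reported here. Count tables without strand cannot separate overlapping genes: exons of Junb overlap Prdx2, those of Dnaja1 overlap Smu1, and those of Hspd1 and Hspe1 overlap each other.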

Additional observations from a re-analysis of the deposited data

Results flagged for a closer look

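In 6 of 57 sets of 4 values (members' log2(CPM + 1) and pair ratios), the library farthest from the rest stood apart, by the ratio of its gap to the nearest other library over the whole range (Dixon's test at its 95% critical value for 4 values). Chance flags about 1 in 20 such sets, but these sets share libraries and genes, so their number was not tested against that rate. Mouse 1 was the distant library for Dusp1 (0.98 of the range, higher than the others), Hspa1a (0.833, higher) and Klf10 (0.925, lower). Mouse 4 was distant for Fosb (0.932, higher), mouse 3 for Btg2 (0.917, lower) and mouse 2 for Hsph1 (0.958, lower).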

How the results depend on the processing

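No paired analysis was possible because the series has a single group. The count of 38 members called above 10 CPM was 33 to 38 under the alternatives that keep the level of 10 CPM, with 35 to 37 when a mouse was left out, 36 without mice 1 and 2, 33 without mice 1 and 3, 35 with limma-voom and 37 with DESeq2. Adding the suffix rows, which was chosen after seeing the data, also gave 38. Against 50 CPM, 2307 genes of all tested (6795 at 10 CPM) and 31 pathway genes (48 at 10 CPM) were called, which the higher level brings by construction. For the same reason the log2 level turned negative for Fosb (-1.25), Egr2 (-0.56), Nr4a1 (-0.21), Gadd45b (-1.35), Myc (-0.47), Klf4 (-0.81), Hsph1 (-0.42), Hspb1 (-0.37), Hsf1 (-0.34) and Hsf2 (-1.62).

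The sign relative to 10 CPM also turned with fewer mice, and the cause was not tested: Klf10 without mouse 1 (0.30, and -0.38 at the lowest, without mouse 3), without mice 1 and 2 (0.31) and without mice 1 and 3 (0.23), Dusp2 without mouse 2 (0.32) or mouse 4 (0.29; -1.72 at the lowest, without mouse 1), Nr4a1 (-0.40) and Hsf2 (-1.07) without mice 1 and 2, and Gadd45b without mice 1 and 3 (-0.61). Leaving out a mouse moved Hspd1 over Hspe1 between -0.068 and 0.154; the mean of the other 7 pairs kept its sign under every alternative run. The members' median SD was 0.62 to 0.67 under its alternatives. At these depths 3 counts correspond to 0.0278 to 0.0348 CPM. Adding the suffix rows moved Junb over Jund to 1.28 and Hspa8 over Hspa1a to 0.71, where mouse 1 turned negative (-0.16).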
